A study of Mus musculus with 21 samples.

Results

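The genes of the mitochondrial ribosome were followed in the quadriceps of adult male wild-type C57/Bl6 mice after a single bout of exhaustive exercise. The family was defined as the rows of the expression matrix whose symbol reads Mrpl or Mrps followed by a number and at most 1 letter. This rule selected 78 genes of the 53738 gene symbols in the matrix and left out 6 symbols of pseudogenes. All 78 genes had a mean of at least 1 TPM, a transcript abundance corrected for length and scaled to the same total in each library, and were tested among 11822 genes. Bulk RNA-seq covered 7 groups of 3 mice. The sedentary group performed no exercise. Untrained mice and mice trained by voluntary wheel running for 12 weeks ran on a treadmill to exhaustion and were sacrificed 0 h, 6 h or 72 h later. The matrix holds no group of trained mice at rest, so a difference between trained and sedentary muscle combines the training and the bout, which cannot be told apart.

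Mitochondria keep their own ribosome, which translates the few messenger RNAs of the mitochondrial genome, all of them for subunits of oxidative phosphorylation. Its ribosomal RNAs, mt-Rnr1 and mt-Rnr2, come from the mitochondrial genome, whereas all of its proteins are encoded in the nucleus, made in the cytosol and imported. Part of these proteins descend from bacterial ribosomal proteins and part were acquired by the mitochondrial ribosome later. In muscle, the supply of mitochondrial ribosomes belongs to mitochondrial biogenesis, a program in which the coactivator Ppargc1a (PGC-1α) and the transcription factors Nrf1, Gabpa and Esrra are known to take part.

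Among the 78 genes, 29 were classed as large subunit proteins with a bacterial homolog and 22 as large subunit proteins particular to mitochondria. Mrps30 and Mrps18a were counted in the class of the subunit that holds them in the structure. Mrpl47 and Mrpl55 were classed as particular to mitochondria, although both have a bacterial homolog. The sizes and medians of the large subunit classes are therefore approximate. The small subunit accounts for 16 genes with a bacterial homolog and 10 classed as particular to mitochondria. The latter class holds Mrps18b, although Mrps18a and Mrps18c are classed with a bacterial homolog. The remaining gene, Mrps36, carries a ribosomal name but encodes a subunit of the 2-oxoglutarate dehydrogenase complex. In the GRCm39 annotation the genes lie scattered over 17 chromosomes, with at most 11 on 1 chromosome. Their proteins have between 92 and 442 residues, with a median of 194.

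Some of these loci have a divergent promoter. A protein-coding gene starts on the opposite strand within 1000 bases of the start site for 15 of the 78 genes (19.2%), compared with 893 of 9704 tested protein-coding genes (9.20%). Mrpl46 and Mrps11, of the large and the small subunit, are head to head with each other, with starts 30 bases apart. Mrpl43 is paired with Twnk, the mitochondrial helicase, Mrps12 with Sars2, the mitochondrial seryl-tRNA synthetase, and Mrpl49 with Fau, whose product includes a cytosolic ribosomal protein. In the 300 bases from 250 before to 50 after the start, on either strand, the NRF1 motif GCGCANGCG was present in 20.5% of the 78 genes, in 13.1% of tested protein-coding genes and in 8.08% of all protein-coding genes. The ETS motif CCGGAAGT, which GABPA binds, was present in 14.1%, 7.32% and 4.35%, and the YY1 motif AAGATGGCG in 5.13%, 2.45% and 1.34%. The ERR motif AAGGTCA was present in 5.13%, 3.66% and 4.48%, the AP-1 motif TGANTCA in 5.13%, 5.07% and 7.14%, and the TATA box TATAAA in 10.3%, 8.02% and 13.2%. Other motifs were less frequent in the family than in tested protein-coding genes, the E-box CACGTG with 6.41%, 10.6% and 7.81% and the cAMP response element TGACGTCA with 2.56%, 3.33% and 2.44%. The difference of these shares was not tested. These matches are descriptions of letters in a window and do not show binding.

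The following stretches of GRCm39 are shown because they precede the start of the 2 genes that passed both the adjusted p and the 1.5-fold threshold described below, Mrps6 and Mrpl38, and of Mrpl45, which has NRF1 motifs on both sides of its start, and because the last is the whole space between the starts of Mrpl46 and Mrps11. Capitals mark NRF1 motifs. The Mrps6 sequence is the plus strand of chr16:91854845-91854964, the Mrpl45 sequence the plus strand of chr11:97206422-97206541, the Mrpl38 sequence the minus strand of chr11:116029701-116029820, and the last sequence the plus strand of chr7:78432838-78432866. None of the first 3 holds an annotated exon. The Mrpl38 stretch held no listed motif.
Mrps6: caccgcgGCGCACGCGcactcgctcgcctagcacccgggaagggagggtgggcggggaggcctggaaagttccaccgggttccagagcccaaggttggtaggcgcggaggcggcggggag
Mrpl45: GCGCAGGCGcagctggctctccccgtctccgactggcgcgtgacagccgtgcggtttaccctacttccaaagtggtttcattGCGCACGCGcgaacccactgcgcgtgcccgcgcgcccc
Mrpl38: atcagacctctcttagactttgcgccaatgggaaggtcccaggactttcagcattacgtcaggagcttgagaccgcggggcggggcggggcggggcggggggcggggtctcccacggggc
Mrpl46 to Mrps11: ccatgaggcaacgcgggccggcgaggggc

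Replicate 1 of the untrained and of the trained group at 0 h had the same value for each of the 53738 symbols, so there were 20 distinct libraries. This shared library was left out of both 0 h groups, which therefore had n = 2. It also had the highest summed TPM of the family, 3436, against a range of 2491 to 3032 in the other libraries. TPM keep no read counts, so the depth behind a value is unknown. The muscle origin was checked with 8 fiber genes such as Acta1 and Ckm, which were all expressed and together made up between 89222 and 118760 TPM per library. The 8 macrophage genes summed to between 33.3 and 74.2 TPM, and 4 neutrophil genes to between 0.187 and 1.72 TPM. In bulk tissue, fewer cells of a type and less RNA per cell cannot be told apart.

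The 78 genes differed widely in level. Mean TPM over 19 libraries ranged from 3.82 to 551, with a median of 24.7, and 57 of the 78 genes lay between 10 and 50 TPM. Mrps21, a small subunit protein with a bacterial homolog, was the highest in 19 of 19 libraries and ranged from 456 to 633 TPM, which was between 18.3% and 21.03% of the summed TPM of the family. Mrpl42, a large subunit protein particular to mitochondria, was the next in 19 of 19 libraries, from 203 to 240 TPM. These ranges did not overlap. Mrpl30 (62.7 to 91.3 TPM), Mrpl51 (57.7 to 72.1 TPM) and Mrpl14 (48.0 to 68.1 TPM) followed, and these 3 overlapped. At the lower end, Mrps30 ranged from 3.61 to 4.54 TPM, Mrpl39 from 4.53 to 5.62 TPM, Mrpl1 from 4.85 to 6.34 TPM and Mrps2 from 5.13 to 7.95 TPM. Mrpl19 had the lowest mean, but its range from 2.26 to 9.73 TPM spanned that of all 4.

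The classes of subunit and ancestry did not separate these levels. Median TPM was 25.6 for large subunit genes classed with a bacterial homolog and 25.96 for those classed without, and 24.9 and 19.01 for the 2 small subunit classes. The order of the genes was nearly the same in every group: Spearman's rho of the group means over the 78 genes lay between 0.965 and 0.992 in the 21 pairs of groups, a description over genes that share libraries. TPM correct for transcript length, so levels of different genes can be set side by side. However, 57 of the 78 genes share exon sequence with a gene on the opposite strand, and for 31 genes this covers over 10% of the canonical transcript. The library kit does not mark strand, so reads of such pairs cannot be told apart. For Mrps21 the overlap was 31.0% of the transcript and for Mrpl42 it was 0%.

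**Figure D1:**
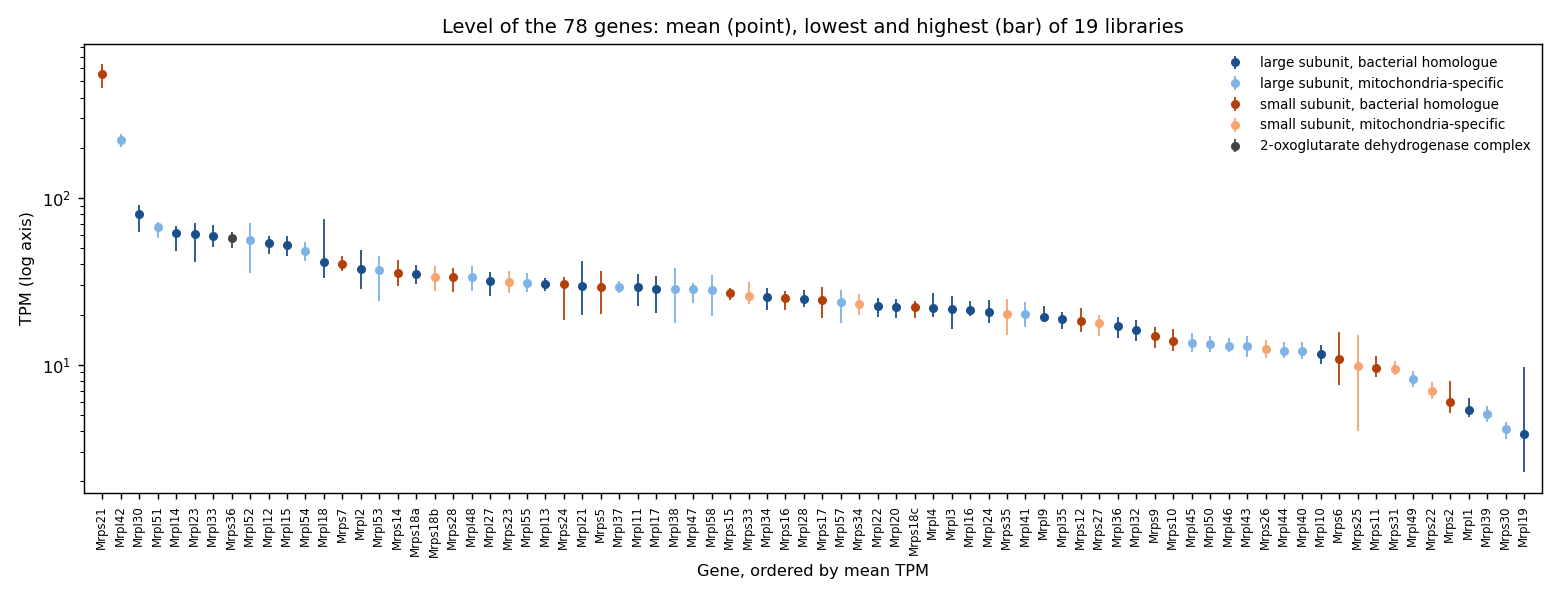
Each point is the mean TPM of 1 of the 78 genes over 19 libraries on a log axis, and each bar runs from the lowest to the highest library, with colors for subunit and ancestry. Mrps21 and Mrpl42 stand above all others, and the bars of Mrps25 and Mrpl19 are the longest.

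Most of these genes were stable between mice. The ratio of the highest to the lowest of the 19 libraries had a median of 1.33 and was under 2 for 71 genes. The pooled SD within groups on the log2 scale had a median of 0.0828, and the lowest was 0.0349 for Mrpl37, a mitochondria-specific protein of the large subunit. Mrps25 (0.815) and Mrpl19 (0.504) had by far the widest spread, and the next SD was 0.239 for Mrpl58.

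Expression of the mitochondrial ribosome in each exercised group was compared with sedentary muscle (limma, Benjamini-Hochberg adjustment over all 11822 genes). For the trained groups this comparison holds both the training and the bout. For nearly all members no difference passed the test. At 0 h in untrained muscle, 3 of the 78 genes (3.85%) had an adjusted p below 0.05, all of them higher, compared with 4.18% of all genes. With the additional threshold of a 1.5-fold change, 1 gene was called, Mrpl38, compared with 2.89% of all genes. At 0 h in trained muscle, 2 genes passed the adjusted p, both higher (5.46% of all genes), and 0 the fold threshold (3.21% of all genes), and 15 (19.2%) had an unadjusted p below 0.05, compared with 21.8% of all genes. After rescaling, 1 gene was higher and 1 lower in untrained muscle and 0 passed in trained muscle.

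At 6 h, when the response of the whole transcriptome was broad, the family still showed few calls in TPM as deposited. In untrained muscle 2 genes passed the adjusted p (2.56%, both higher), compared with 9.30% of all genes, and 1 of them the fold threshold, Mrps6, compared with 4.22%. In trained muscle 5 genes passed the adjusted p (6.41%, 4 higher and 1 lower), compared with 10.8% of all genes, and 0 the fold threshold, compared with 3.81%. At an unadjusted p below 0.05 there were 8 genes (10.3%) in untrained and 20 genes (25.6%) in trained muscle, against 22.1% and 25.2% of all genes. The split by the adjusted p depended on scaling. After rescaling without the mitochondrial genome and the 10 highest genes it was 1 higher and 2 lower in untrained and 9 higher and 1 lower in trained muscle, and after median-of-ratios scaling 1 higher and 0 lower, and 6 higher and 0 lower. How many of all genes passed under these scalings was not counted, so these splits cannot be set beside that share.

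By 72 h, 0 of the 78 genes passed the adjusted p or the fold threshold in limma in either training state, with 8 genes (10.3%) in untrained and 18 (23.1%) in trained muscle at an unadjusted p below 0.05, compared with 6.07% and 12.8% of all genes. The share of all genes that passed was 0.00846% by both rules in untrained muscle, and 0.465% and 0.245% in trained muscle.

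The precision of these comparisons was sufficient to bound most changes. The 95% interval of the log2 fold change reached a median of 0.152 to 0.187 to each side of the estimate in the 9 comparisons. It stayed inside a 1.5-fold change in both directions for between 68 and 73 of the 78 genes.

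Training state was compared at each time point. At 0 h, 0 of the 78 genes passed the adjusted p and 0 the fold threshold in limma, as for all genes (0% by both rules), with 2 members (2.56%) at an unadjusted p below 0.05, compared with 4.46% of all genes. At 6 h, 3 genes passed the adjusted p, 1 higher and 2 lower in trained muscle (4.79% of all genes), and 0 the fold threshold (1.93% of all genes), with 19 members (24.4%) at an unadjusted p below 0.05, compared with 19.1% of all genes. After rescaling without the mitochondrial genome and the 10 highest genes the split by the adjusted p was 11 higher and 1 lower, and after median-of-ratios scaling 3 higher and 1 lower. Again, the share of all genes under these scalings was not counted. At 72 h, 1 gene passed the adjusted p, lower in trained muscle (1.15% of all genes), and 0 the fold threshold (0.364% of all genes), with 32 members (41.0%) at an unadjusted p below 0.05, compared with 16.3% of all genes.

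**Figure D2:**
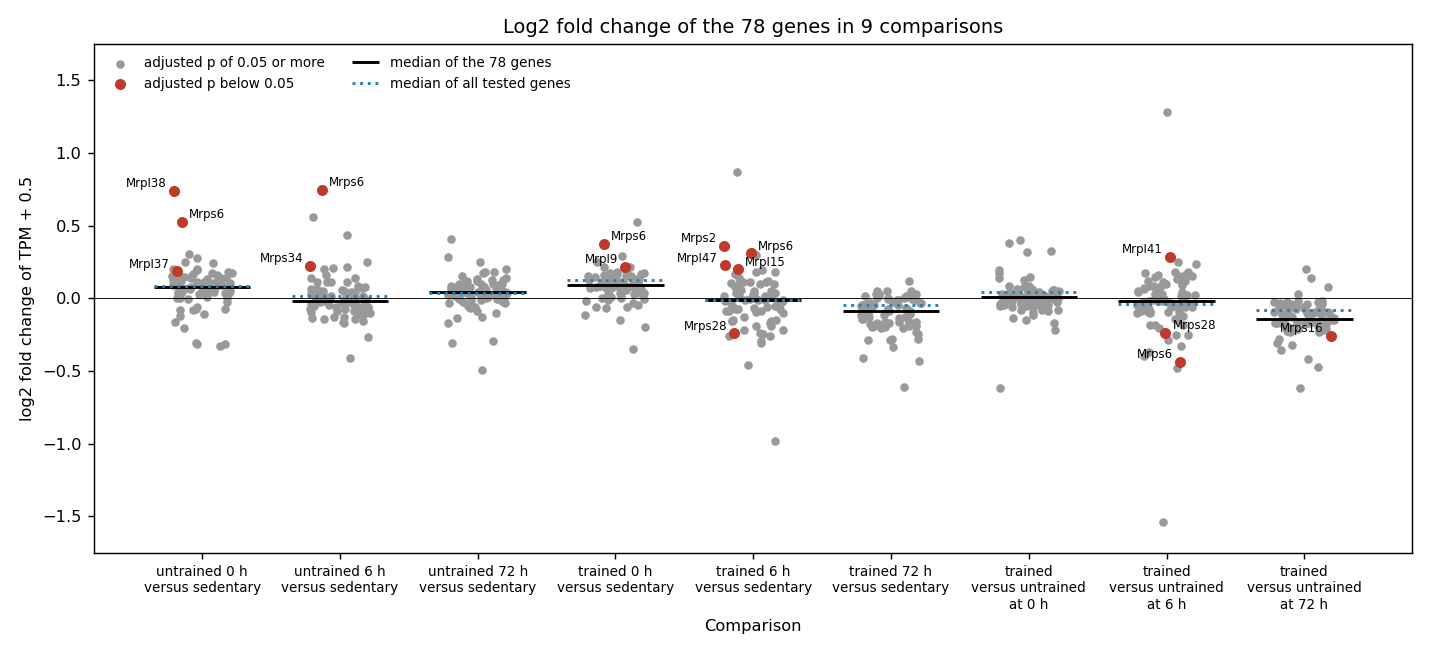
Each point is the log2 fold change of TPM + 0.5 of 1 of the 78 genes in 1 of 9 comparisons, red where the adjusted p was below 0.05, with the median of the 78 genes (black) and of all tested genes (dotted). Points lie close to the medians in each comparison, Mrps6 is red in 5 of them, and the farthest points, at 1.28 and -1.54 in trained versus untrained muscle at 6 h, are gray.

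Mrps6, a small subunit protein with a bacterial homolog, was higher at 0 h and 6 h than in sedentary muscle in both training states. It was at 7.58, 8.60 and 9.35 TPM in the sedentary libraries. In untrained muscle it reached 12.0 and 12.9 TPM at 0 h and 13.0, 15.6 and 15.2 TPM at 6 h, and was at 9.63, 9.97 and 10.9 TPM at 72 h. With training, Mrps6 was at 11.5 and 10.8 TPM at 0 h, 11.1, 10.3 and 10.5 TPM at 6 h and 8.86, 7.85 and 9.27 TPM at 72 h. All libraries of the 0 h and 6 h groups lay above the highest sedentary library, and the trained 72 h libraries lay within the sedentary range. The library shared by both 0 h groups was at 15.7 TPM.

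In untrained muscle the log2 fold change of Mrps6 against sedentary muscle was 0.53 (SE 0.098, adjusted p 0.0056, limma) at 0 h and 0.75 (SE 0.088, adjusted p 0.000107) at 6 h. In trained muscle it was 0.38 (SE 0.098, adjusted p 0.04) at 0 h and 0.31 (SE 0.088, adjusted p 0.0373) at 6 h. At 72 h the adjusted p was 0.764 in untrained and 0.948 in trained muscle. A direct test at 6 h placed Mrps6 lower with training than without (log2 fold change -0.44, SE 0.088, adjusted p 0.0121), and each trained library lay below each untrained one. At 0 h the training states did not differ by the test (log2 fold change -0.15, 95% interval from -0.38 to 0.079). The rise at 6 h in untrained muscle passed the adjusted p in 10 of 10 alternative settings and without any 1 of the 6 libraries. The rise at 0 h in untrained muscle was lost without untrained 0 h replicate 3 (adjusted p 0.0787), and the difference between training states at 6 h without untrained 6 h replicate 2 (adjusted p 0.0614). With 1 library left out in turn, the smaller differences between trained and sedentary muscle passed in 1 of 5 fits at 0 h and in 1 of 6 fits at 6 h, both of them without sedentary replicate 3.

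The value of Mrps6 is uncertain because of its locus. Mrps6 spans chr16:91854965-91909592 on the plus strand, and Slc5a3, which encodes a myo-inositol transporter induced by osmotic stress, begins at the same base and ends at position 91884361. Their canonical transcripts share 404 exon bases, out of 1039 for Mrps6 and 11158 for Slc5a3. Slc5a3 was below the filter of 1 TPM and was not tested. It was at 0.104, 0.118 and 0.138 TPM in sedentary muscle, at 0.759 and 0.607 TPM in untrained muscle at 0 h and at 0.340, 0.920 and 0.458 TPM at 6 h. With training, Slc5a3 was at 0.807 and 0.384 TPM at 0 h and between 0.108 and 0.126 TPM at 6 h. Slc5a3 thus stood above sedentary muscle in the untrained 0 h, untrained 6 h and trained 0 h libraries, but within the sedentary range in trained muscle at 6 h, where Mrps6 was higher than in sedentary muscle. The part of shared exons in the Mrps6 values was not tested. At 6 h in untrained muscle, where Mrps6 was highest, 2 of 7 tested macrophage genes were also called, both higher (median of the 7 genes 0.42 on the log2 scale). The 8 listed macrophage genes summed to 35.2 to 74.2 TPM in these libraries, around the sedentary range of 39.5 to 43.4 TPM. The part of macrophages in the Mrps6 values was not tested either.

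Mrpl38, a mitochondria-specific protein of the large subunit, was called at 0 h in untrained muscle. Sedentary libraries were at 17.8, 20.7 and 31.2 TPM, and the untrained 0 h libraries at 37.9 and 38.3 TPM. The groups did not overlap, but the sedentary group was spread widely. The log2 fold change was 0.74 (SE 0.19, adjusted p 0.0465, limma). This call held in 6 of 10 alternative settings and in 1 of the 5 fits that left out a library, the one without sedentary replicate 3, with an adjusted p of up to 0.219. In the other groups Mrpl38 was between 19.8 and 37.8 TPM, overlapping the sedentary libraries in each group.

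Mrps2, which has a bacterial homolog in the small subunit, was higher at 6 h in trained muscle. It was at 5.51, 5.38 and 5.49 TPM in sedentary muscle and at 7.30, 6.32 and 7.95 TPM in trained muscle at 6 h, with no overlap. The log2 fold change was 0.36 (SE 0.067, adjusted p 0.0039, limma), which passed without each of the 6 libraries in turn and in 9 of 10 alternative settings. In untrained muscle at 6 h it was at 6.05, 6.45 and 6.69 TPM, also above every sedentary library, with an adjusted p of 0.0705. The training states at 6 h did not differ by the test (adjusted p 0.23), and their libraries overlapped. At 72 h Mrps2 was at 5.13 to 5.47 TPM in trained muscle.

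**Figure D3:**
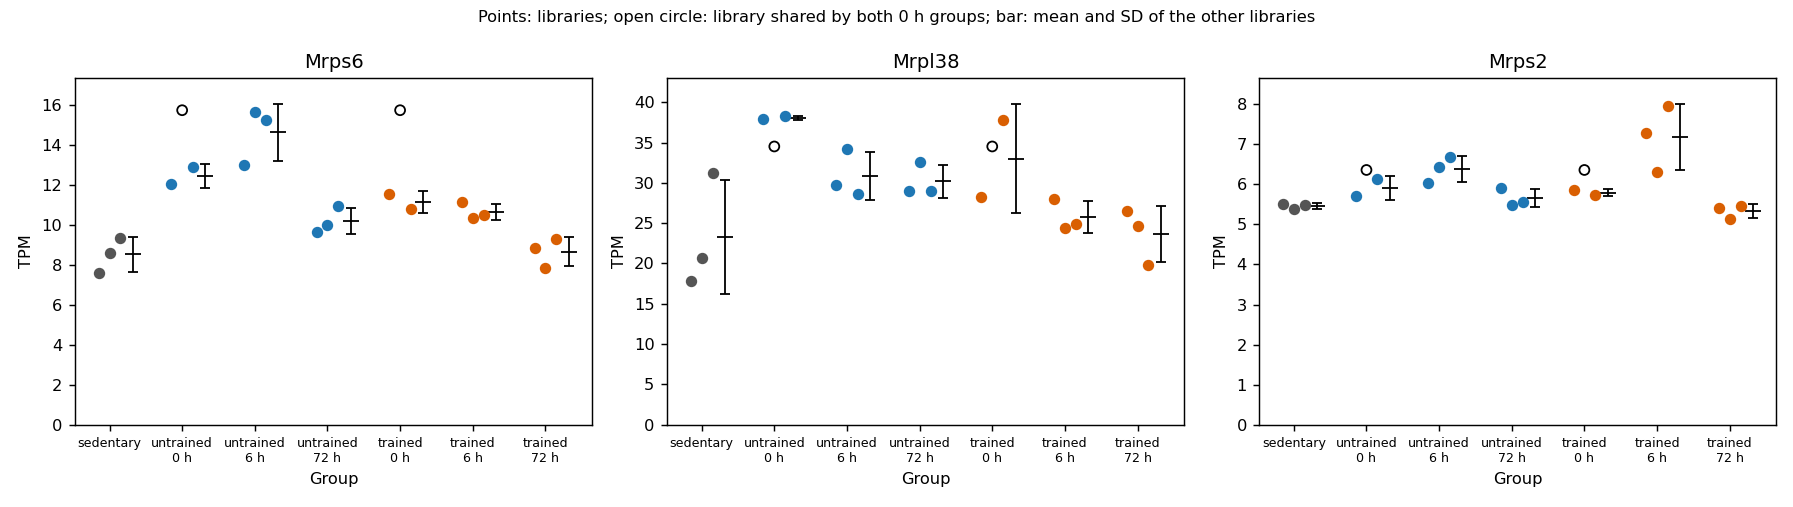
TPM of Mrps6, Mrpl38 and Mrps2 in each library by group, with the mean and SD of the libraries used in the test (n = 3, or n = 2 at 0 h) and the library shared by both 0 h groups as an open circle. Mrps6 is highest in untrained muscle at 6 h, the 3 sedentary libraries of Mrpl38 are widely spread, and Mrps2 is highest in trained muscle at 6 h.

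The other members with an adjusted p below 0.05 moved by less than 0.3 on the log2 scale. In the large subunit, Mrpl37 was higher at 0 h in untrained muscle (26.8 to 28.7 TPM in sedentary muscle, 31.0 and 31.8 TPM at 0 h; log2 fold change 0.18, adjusted p 0.0404). Mrpl9 was higher at 0 h in trained muscle (18.2 to 20.2 TPM in sedentary muscle, 22.5 and 21.6 TPM at 0 h; log2 fold change 0.22, adjusted p 0.026). At 6 h in trained muscle, Mrpl15 was higher than in sedentary muscle (53.4 to 59.0 TPM against 48.2 to 51.8 TPM, adjusted p 0.021). So was Mrpl47 (29.6 to 30.9 TPM against 23.5 to 27.97 TPM, adjusted p 0.0222). None of these 4 pairs of groups overlapped. With 1 library left out in turn, however, the calls on Mrpl37 and Mrpl9 passed in 1 of 5 fits each, the one without sedentary replicate 3 (adjusted p of up to 0.261 and 0.2 in the others). That on Mrpl15 passed in 2 of 6 (adjusted p of up to 0.083), those without sedentary replicate 3 or trained 6 h replicate 2, and was also lost with all 21 columns or only the groups compared. That on Mrpl47 passed in 3 of 6 fits and was lost without sedentary replicate 2, trained 6 h replicate 1 or trained 6 h replicate 3.

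In the small subunit, Mrps34 rose at 6 h in untrained muscle, from between 21.4 and 22.2 TPM to between 25.2 and 26.5 TPM (log2 fold change 0.22, adjusted p 0.0133), but opposite-strand exons cover 77.9% of its transcript. Mrps28 was lower at 6 h in trained than in sedentary muscle, at 27.5 to 30.2 TPM against 32.4 to 36.5 TPM (log2 fold change -0.24, adjusted p 0.0211). It was also lower there than in untrained muscle at 6 h, at 31.8 to 37.0 TPM (log2 fold change -0.24, adjusted p 0.0406). Between training states, Mrpl41 was higher in trained muscle at 6 h (20.3 to 23.8 TPM against 16.9 to 18.6 TPM, log2 fold change 0.29, adjusted p 0.0195). Mrps16 was lower in trained muscle at 72 h (21.3 to 21.99 TPM against 24.7 to 27.4 TPM, log2 fold change -0.26, adjusted p 0.0382). These small differences depended on single libraries as well. The call on Mrps34 was lost without sedentary replicate 2 (adjusted p 0.0549), and both calls on Mrps28 passed in 2 of 6 fits, against sedentary muscle without sedentary replicate 2 or trained 6 h replicate 2 and between training states without untrained 6 h replicate 1 or 3. The call on Mrps16 was lost without any 1 of the 6 libraries, and that on Mrpl41 without untrained 6 h replicate 3, trained 6 h replicate 1 or trained 6 h replicate 2.

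Several of the largest fold changes did not pass the test, in which the spread of a gene is estimated over all 7 groups together. Mrps25, a mitochondria-specific protein of the small subunit, was either between 4.01 and 4.46 TPM, in 8 of the 19 libraries, or between 12.4 and 15.02 TPM, in the other 11, with no library between. Sedentary libraries were at 4.01, 12.4 and 15.02 TPM, and untrained 72 h libraries at 4.10, 13.5 and 14.1 TPM. All 3 untrained 6 h libraries were in the upper range (13.5, 14.02 and 13.7 TPM) and all 3 trained 6 h libraries in the lower (4.42, 4.30 and 4.46 TPM). The resulting log2 fold change between the training states at 6 h, -1.54 (SE 0.62), had an adjusted p of 0.186. The libraries within each 6 h group were close together, and the SE also holds the spread of the split groups, such as sedentary muscle. Opposite-strand exons of Nr2c2 cover 75.3% of the Mrps25 transcript. Nr2c2 ranged from 3.24 to 4.41 TPM. The part of shared reads in the Mrps25 values was not tested.

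Mrpl19 and Mrpl21, both large subunit proteins with a bacterial homolog, also had an empty interval between their libraries, which was narrower for Mrpl21. Mrpl19 was between 2.26 and 3.47 TPM in 15 libraries and between 6.52 and 9.73 TPM in 4 libraries, which were sedentary replicate 2 (7.11 TPM), untrained 0 h replicate 3 (6.52 TPM) and trained 6 h replicates 1 and 2 (9.73 and 9.33 TPM). The log2 fold change between the training states at 6 h was 1.28 (SE 0.39, adjusted p 0.0773). Mrpl21 was between 19.98 and 26.6 TPM in 10 libraries and between 34.9 and 42.1 TPM in 9. Both 6 h groups were in the upper range in all their libraries (35.4 to 38.5 TPM untrained, 37.3 to 40.1 TPM trained) and both 72 h groups in the lower (21.1 to 22.4 TPM untrained, 19.98 to 20.5 TPM trained). Sedentary muscle was split, at 34.9, 37.0 and 23.2 TPM, so that the log2 fold change of -0.61 at 72 h in trained muscle (SE 0.18) had an adjusted p of 0.162.

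Such gaps were not a feature of the family. An empty interval of at least 1.5-fold, with at least 2 libraries on each side, was found for 2 of the 78 genes (2.56%), Mrps25 and Mrpl19, compared with 9.12% of all tested genes. This measure was chosen after the values were seen. The widest interval was 0.47 on the log2 scale for Mrps24 and 0.38 for Mrpl21, both below the limit. The share of all tested genes includes genes near the filter of 1 TPM, whereas the lowest mean in the family was 3.82 TPM.

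**Figure D4:**
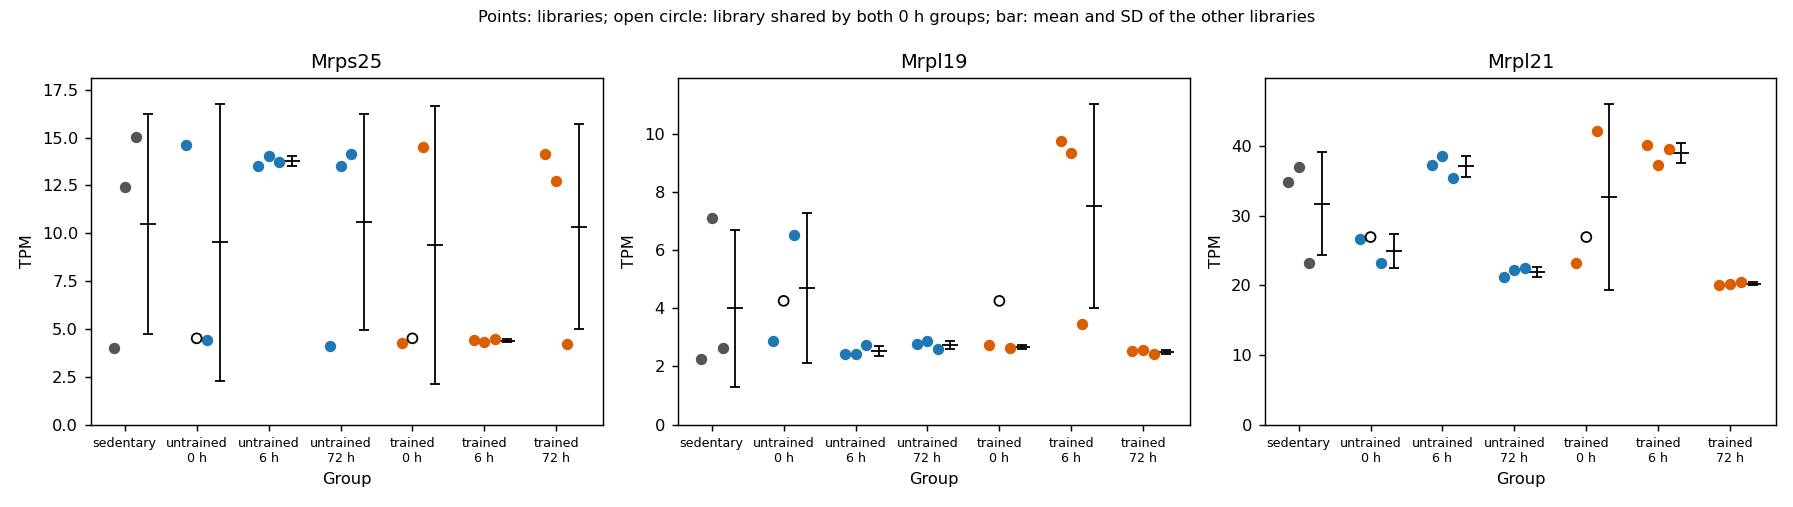
TPM of Mrps25, Mrpl19 and Mrpl21 in each library by group, with the mean and SD of the libraries used in the test and the library shared by both 0 h groups as an open circle. Mrps25 is either near 4 or above 12 TPM, Mrpl19 is above 6 TPM in 4 libraries, and Mrpl21 is high in all 6 h libraries and low in all 72 h libraries.

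Further members combined large differences with a wide spread. Mrpl18, which also binds 5S ribosomal RNA for import, was at 39.4, 52.3 and 74.4 TPM in untrained and at 33.7, 35.5 and 34.7 TPM in trained muscle at 72 h (log2 fold change -0.62, adjusted p 0.102). Mrpl17, with a bacterial homolog, was at 34.2, 30.2 and 31.4 TPM in sedentary and at 21.9, 27.3 and 20.5 TPM in trained muscle at 6 h (log2 fold change -0.46, adjusted p 0.0697). Neither pair of groups overlapped, but neither difference passed the adjusted p. Mrpl58, a peptidyl-tRNA hydrolase that rescues stalled ribosomes, was between 19.5 and 24.4 TPM in trained muscle and between 27.3 and 33.2 TPM in untrained muscle at 72 h (log2 fold change -0.42, adjusted p 0.282). Mrpl2, whose bacterial homolog lies near the peptidyl transferase center, had a log2 fold change of -0.48 in trained against untrained muscle at 6 h (adjusted p 0.0918), and Mrpl52 one of -0.47 at 72 h (adjusted p 0.207).

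At 0 h and 6 h, the family as a whole had a median close to that of all genes. Its median log2 fold change was 0.08 at 0 h in untrained muscle (62 genes positive, 79.5%) and 0.09 in trained muscle (65 positive, 83.3%), compared with 0.08 and 0.12 for all tested genes, of which 68.2% and 76.1% were positive. At 6 h it was -0.02 in untrained and -0.01 in trained muscle, compared with 0.01 and -0.01. The sign at 0 h depended on scaling: after median-of-ratios scaling the medians were -0.01 and -0.04, and after leaving out the mitochondrial genome and the 10 highest genes they were -0.05 and -0.06, compared with -0.04 and -0.01 for all genes. Under this last scaling the medians at 6 h were -0.09 in untrained muscle, with 61 negative and 17 positive genes, and 0.01 in trained muscle, and 0.07 between training states, with 56 positive and 22 negative genes, compared with -0.05, 0 and 0.04 for all genes. Of all genes, 39.9% were positive in untrained muscle and 57.9% between training states under this scaling.

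In TPM as deposited, the median of the family was farthest from 0 in trained against untrained muscle at 72 h. Summed TPM were 2792 to 2913 in untrained and 2491 to 2601 in trained muscle, compared with 2712 to 2962 in sedentary muscle. The trained 72 h libraries lay below all others except those of trained muscle at 6 h (2594 to 2732). Against sedentary muscle at 72 h, the median log2 fold change was -0.09 in trained muscle (62 genes negative, 16 positive), compared with -0.04 for all genes. In untrained muscle it was 0.04 (57 positive, 21 negative), compared with 0.04 for all genes. In trained against untrained muscle at 72 h, 74 of the 78 genes had a negative and 4 a positive log2 fold change, with a median of -0.14, compared with -0.08 for all genes. Of all genes, 38.8%, 62.2% and 30% were positive in these comparisons, in this order, against 20.5%, 73.1% and 5.13% of the family. In the comparison of training states, medians were -0.13 and -0.15 for the large subunit genes classed with and without a bacterial homolog. They were -0.13 and -0.17 for those of the small subunit. The 83 tested cytosolic ribosomal proteins had a lower median, -0.26, and the 80 tested nuclear subunits of oxidative phosphorylation a median of -0.09.

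Markers of several other cell types also had negative values in this comparison. All 7 tested macrophage genes had a negative log2 fold change (median -0.28, 1 of them called). The 8 listed genes, none of them at 0 throughout the series, summed to 56.9 to 61.5 TPM in untrained, 41.7 to 47.9 TPM in trained and 39.5 to 43.4 TPM in sedentary muscle. All 5 red blood cell genes were negative (median -0.25, 0 called), with sums of 410 to 805 TPM in untrained and 419 to 463 TPM in trained muscle. Negative values were also found for 6 of 8 fiber genes (median -0.11), which summed to 103050 to 108540 TPM in untrained and 95450 to 99880 TPM in trained muscle, and for 5 of 6 endothelial and 4 of 5 fibro-adipogenic genes (medians -0.12 and -0.19, 0 called), but for only 2 of 4 adipocyte genes. The part of these cells in the lower TPM of the family was not tested.

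The lower TPM of the family at 72 h also moved with the share of the mitochondrial genome. Transcripts of the mitochondrial genome made up 46.7% to 48.0% of the TPM in trained muscle at 72 h, 42.3% to 44.3% in untrained muscle at 72 h and 42.2% to 46.9% in sedentary muscle. When TPM were rescaled to the same total without the mitochondrial genome, the family summed to 4801 to 4971 in trained and 5024 to 5137 in untrained muscle at 72 h, which still did not overlap, and to 4953 to 5134 in sedentary muscle. After rescaling without the mitochondrial genome and the 10 highest genes, the median between training states was -0.03 with 46 negative and 32 positive genes, and after median-of-ratios scaling it was -0.05 with 55 negative and 23 positive genes. Of all genes, 55.4% and 50.1% were positive under these scalings. The median of the family minus the median of all genes was -0.061 for TPM as deposited, and -0.050 and -0.052 under these scalings. The direction of single genes at 72 h therefore depended on the scaling, and Mrps16 did not pass the adjusted p under either alternative.

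**Figure D5:**
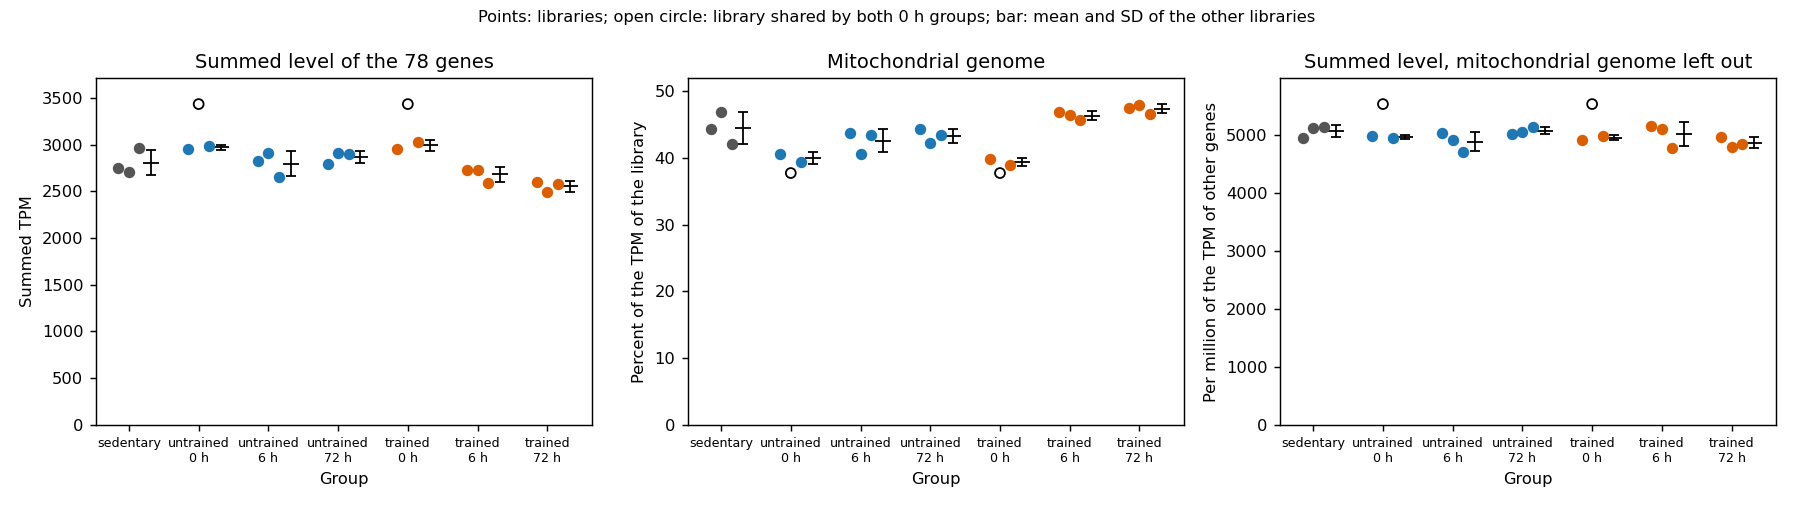
Summed TPM of the 78 genes, share of the mitochondrial genome, and summed level of the 78 genes after TPM were rescaled without the mitochondrial genome, in each library by group, with mean and SD and the library shared by both 0 h groups as an open circle. The mean of the summed TPM is lowest in trained muscle at 72 h, where the mean share of the mitochondrial genome is highest, and the groups lie closer together in the right panel.

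The RNA partners of these proteins had higher TPM at 0 h than in sedentary muscle. The TruSeq RNA kit named in the methods selects RNA with a poly(A) tail. These TPM therefore count only the ribosomal RNA that was captured, and may not reflect its amount in the tissue. The share of the whole mitochondrial genome was lower at 0 h, at 39.4% to 40.6% in untrained and 38.99% to 39.8% in trained muscle. In sedentary muscle this share was 42.2% to 46.9%. mt-Rnr1, the small subunit ribosomal RNA, was at 403, 553 and 508 TPM in sedentary muscle and at 1242 and 1037 TPM in untrained muscle at 0 h (log2 fold change 1.23, SE 0.24, adjusted p 0.0072). mt-Rnr2, the large subunit ribosomal RNA, rose by 1.14 (SE 0.22, adjusted p 0.0078). In trained muscle at 0 h the log2 fold changes were 1.05 and 0.97 (adjusted p 0.0182 and 0.0197), with mt-Rnr1 at 1368 and 739 TPM in those libraries. Without trained 0 h replicate 2 the log2 fold changes in trained muscle were 0.61 and 0.49 (adjusted p 0.232 and 0.236), and without sedentary replicate 1 they did not pass either. The calls in untrained muscle were lost without untrained 0 h replicate 2 (adjusted p 0.109 and 0.107). At 6 h, mt-Rnr1 was between 551 and 848 TPM in untrained and between 587 and 699.5 TPM in trained muscle, and at 72 h between 471 and 577 TPM and between 510 and 692 TPM. mt-Rnr2 was between 533 and 745 TPM and between 610 and 648 TPM at 6 h, and between 504 and 555 TPM and between 508 and 711 TPM at 72 h. Neither RNA passed the adjusted p at 6 h or 72 h. Whether the ribosomal RNAs differed from the proteins over time was not tested.

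Of 9 regulators of mitochondrial biogenesis, 1 passed the adjusted p at 6 h in untrained and 2 in trained muscle, all of them higher (9.30% and 10.8% of all genes). Ppargc1a was at 3.04, 4.30 and 4.34 TPM in sedentary muscle, at 22.3, 33.1 and 25.9 TPM in untrained and at 48.6, 29.1 and 39.2 TPM in trained muscle at 6 h. Its log2 fold changes were 2.65 and 3.15 (SE 0.20 for both, adjusted p 2e-06 and 3e-06), and at 72 h it was between 3.63 and 4.53 TPM. Esrra, an orphan nuclear receptor of oxidative metabolism, was higher at 6 h in trained muscle than in sedentary muscle (0.36, adjusted p 0.0019) and than in untrained muscle (0.24, adjusted p 0.0379). Pprc1, a relative of Ppargc1a, was higher than in sedentary muscle at 0 h in untrained (0.85, adjusted p 0.0385) and trained muscle (0.80, adjusted p 0.0432). Nrf1 and Gabpa had no adjusted p below 0.05 in the 9 comparisons, with log2 fold changes from -0.08 to 0.32 and from -0.66 to 0.57. No test compared the regulators with the family.

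Genes that assemble and serve the mitochondrial ribosome passed the adjusted p mainly at 6 h, when all tested genes also passed more often than at 0 h. At 0 h only Mtres1 in untrained muscle and Mtg2 and Vars2 in trained muscle did so, each higher than in sedentary muscle, with log2 fold changes of 0.22, 0.25 and 0.48. Of all genes, 4.18% and 5.46% passed at 0 h in untrained and trained muscle. Of 26 genes of assembly and ribosomal RNA modification, 3 were higher and 1 lower by the adjusted p in trained muscle at 6 h, and 0 were higher and 3 lower in untrained muscle, compared with 10.8% and 9.30% of all genes in either direction. Mrm1, a methyltransferase of mt-Rnr2, was at 6.57, 12.3 and 10.2 TPM in trained muscle at 6 h and at 1.63, 2.05 and 2.41 TPM in sedentary muscle (log2 fold change 1.98, SE 0.49, adjusted p 0.0199). In the same comparison Mrm3, another methyltransferase of mt-Rnr2, was higher by 0.41 (adjusted p 0.0089) and the assembly factor Mpv17l2 by 0.36 (adjusted p 0.0274). Ngrn, which is required for mt-Rnr2 stability, was lower by 0.27 (adjusted p 0.0094). Mrm1 was also at 10.1 and 2.60 TPM in the untrained and at 2.84 and 11.03 TPM in the trained libraries at 0 h, without passing the test there. In untrained muscle at 6 h, the assembly GTPase Gtpbp10, Ngrn and the small subunit rRNA methyltransferase Tfb1m had log2 fold changes of -0.26, -0.25 and -0.28.

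Of 17 translation factors, 2 were higher and 1 lower by the adjusted p in trained muscle at 6 h, and 1 was lower in untrained muscle, compared with 10.8% and 9.30% of all genes. In trained against sedentary muscle, Tufm, the mitochondrial elongation factor Tu, was higher by 0.30 (adjusted p 0.0239) and Lrpprc, which stabilizes mitochondrial messenger RNAs, by 0.18 (adjusted p 0.0418). Mtfmt, which formylates the initiator tRNA, was lower by 0.34 (adjusted p 0.0352). Mtfmt was also the factor that passed in untrained muscle, with a log2 fold change of -0.35. Of 18 tested aminoacyl-tRNA synthetase and amidotransferase genes, Qrsl1 was higher in trained muscle at 6 h (0.45, adjusted p 0.0034) and Gatb lower in untrained muscle (-0.48, adjusted p 0.0386). Gatb was at 4.32, 7.503 and 4.64 TPM in sedentary muscle and at 3.60, 3.78 and 3.69 TPM in untrained muscle at 6 h, and without sedentary replicate 2 its log2 fold change was -0.25. Yars2, the tyrosyl-tRNA synthetase, was higher with training than without at 6 h (0.41, adjusted p 0.0204). Qrsl1 and Gatb belong to the complex that makes glutaminyl-tRNA.

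Of 5 tested genes of mitochondrial transcription, Mterf2 differed between training states at 6 h. It was at 4.94, 5.24 and 4.96 TPM in untrained and at 8.50, 6.85 and 7.82 TPM in trained muscle (log2 fold change 0.56, adjusted p 0.000828), compared with 6.46 to 7.66 TPM in sedentary muscle. Against sedentary muscle it was lower at 6 h in untrained muscle (-0.44, adjusted p 0.0021). Polrmt, the mitochondrial RNA polymerase, was higher in trained muscle at 6 h than in sedentary muscle (0.35, adjusted p 0.0471). The 5 mitochondrial ribosome proteins that carry other names, among them Dap3 and Ptcd3, had no adjusted p below 0.05 in the 9 comparisons. The calls on the partner genes were checked by leaving out each library of a comparison in turn, a check added after the values were seen. Of 31 calls, 9 passed in every fit: those on Ppargc1a, Esrra, Mrm3, Ngrn and Qrsl1 in trained muscle at 6 h, on Ppargc1a, Tfb1m and Mterf2 in untrained muscle at 6 h, and on Mterf2 between training states. The others were lost in at least 1 fit.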

How the data were processed

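Quadriceps libraries were grouped by the labels. Per the labels and methods, the authors aligned paired-end reads to GRCm39 with STAR 2.7.9, quantified them with salmon 1.5.0, and deposited TPM for each gene symbol. TPM were transformed to log2(TPM + 0.5), and genes averaging 1 TPM or more in 19 libraries were fitted with limma 3.58.1 in R 4.3.3 (7 group means, variance trend, 12 residual degrees of freedom). Benjamini-Hochberg adjustment ran over all tested genes of a comparison, and fold changes are on this log2 scale, which understates changes of low genes. Calls required an adjusted p below 0.05 and a change of 1.5-fold or more (0.585 on the log2 scale). The procedure was tested on simulated data.

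The family and the gene lists were chosen with earlier results of these data known. Named members are those called, the 3 with the largest rise and fall of each comparison, and those with the 5 highest and lowest means. Members past the adjusted p alone, and the examples among partner genes, were added after their values were seen. Positions, exons and sequences came from GENCODE on GRCm39. Nothing states that libraries came from separate cages or days, so p-values measure the spread between these mice. Figures were drawn with matplotlib 3.10.9.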

Additional observations from a re-analysis of the deposited data

Results flagged for a closer look

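In 4 results, trained and untrained muscle differed by the direct test of the difference at the same time point. At 6 h these were Mrps6 (log2 fold change -0.4365, adjusted p 0.0121), Mrps28 (-0.2373, adjusted p 0.0406) and Mrpl41 (0.2852, adjusted p 0.0195), and at 72 h Mrps16 (-0.2587, adjusted p 0.0382), each with 3 libraries per group and adjusted with limma over all tested genes. Mrps6 and Mrps16 were lower in 3 of 3 trained libraries than in any untrained one, as was Mrps28, and Mrpl41 was higher in 3 of 3. The differences are small, and only that of Mrps6 remained past the adjusted p in more than 3 of the 6 fits that left out 1 library.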

How the results depend on the processing

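The number of the 78 genes called at 0 h in untrained muscle was 1, and became 0 without a filter on low values, after rescaling without the mitochondrial genome and the 10 highest genes, with the replicate block and with only the groups compared, and 2 with all 21 columns as deposited. Without the fold threshold the counts were 3 and 2 at 0 h in untrained and trained muscle, 2 and 5 at 6 h, and 3 and 1 between training states at 6 h and 72 h. With only the groups compared, 1 gene was called between training states at 6 h in place of 0. When each library was left out in turn, the count ranged from 0 to 2 at 0 h and from 1 to 2 at 6 h in untrained muscle, from 0 to 1 at both times in trained muscle, and from 0 to 1 between training states at each time. The count at 0 h in untrained muscle was 0 without sedentary replicate 1, sedentary replicate 2 or untrained 0 h replicate 2, and 2 without sedentary replicate 3, which also raised the count by 1 in trained muscle at 0 h and in untrained muscle at 6 h. In trained muscle at 6 h, leaving out sedentary replicate 2 or trained 6 h replicate 3 gave 1 call. Between training states, 1 call appeared without untrained 0 h replicate 3, trained 6 h replicate 3 or untrained 72 h replicate 1 at the respective time. Where a 0 h group was left with 1 library, that library is assumed to vary like the other groups. The cause was not tested. Other counts of called members stayed the same.

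Same-numbered libraries did not deviate together (52 pairs, r from -0.088 to 0.09, 0 above 0.1), so replicate numbers share only a name, and the replicate block moved no other count. Among the values of named members under alternative settings, 849 kept their direction and side of the adjusted p, 94 no longer passed it, 14 newly passed it, and 17 changed direction. These 17 all came from leaving out 1 library and belong to members that did not pass the test in that comparison. With 1 library left out, the log2 fold change ranged as given for Mrpl53 (from -0.7012 to 0.048) and Mrps24 (from -0.7314 to 0.1058) in untrained 0 h versus sedentary, Mrpl17 (from -0.3853 to 0.0848), Mrpl19 (from -0.6196 to 0.1123) and Mrps25 (from -1.0233 to 0.6343) in trained 0 h versus sedentary, Mrpl19 (from -0.6855 to 0.0463) in untrained 6 h versus sedentary, Mrpl19 (from -0.5844 to 0.1474) in untrained 72 h versus sedentary. The same held for Mrpl19 (from -0.7019 to 0.03) and Mrpl38 (from -0.115 to 0.2823) in trained 72 h versus sedentary, Mrpl11 (from -0.4803 to 0.141), Mrpl21 (from -0.0961 to 0.7469) and Mrps24 (from -0.0365 to 0.8007) in trained versus untrained at 0 h, Mrps24 (from -0.0694 to 0.2474) in trained versus untrained at 72 h.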
